A study of Mus musculus with 9 samples.

Results

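Chemokines are small secreted proteins that bind G protein-coupled receptors on leukocytes and direct their movement. The CC and CXC families are named for the spacing of their first conserved cysteines, and inflammatory members are switched on in macrophages by microbial products and cytokines, largely through the transcription factor NF-kB. Glucocorticoids are known to repress many of these genes, and interleukin 4 (IL-4) moves macrophages toward another, alternative state. Described here are 7 such genes among the 17810 UniGene clusters of a mouse array data set, chosen by a given list of cluster numbers and gene names: Ccl2 (cluster Mm.290320), Ccl7 (Mm.341574), Ccl3 (Mm.1282), Ccl4 (Mm.244263), Ccl5 (Mm.284248), Cxcl1 (Mm.21013) and Cxcl2 (Mm.4979). All 7 numbers were found, each with 1 probe set. No file used here ties a cluster number to a name, so the names are those of the list, and no macrophage or other cell-type marker was looked up to check the labelled cells.

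The cells were macrophages derived from bone marrow (tibia and femur) of C57BL/6 mice. All 3 groups, each of 3 arrays, were cultured for 7 days with 30 ng/ml M-CSF, the growth factor that drives macrophage formation, and their medium was changed on day 4 for the last 3 days. Cells of dexa+IL4 were then given 5e-07 M dexamethasone, a synthetic glucocorticoid, together with 10 ng/ml IL-4. Those of cmB16F1 were given medium in which B16F1 mouse melanoma cells had grown. The last group, cmB16F1+dexa+IL4, was given all of these and is called the combination. Dexamethasone and IL-4 were always given together, so their parts cannot be told apart. The labels give no age, sex or pooling of the mice. The labels do not say whether the arrays of a group came from separate mice or cultures, so the p-values measure the spread between these arrays. Arrays of macrophages in plain medium were not analysed here, so no value below is a change from an unstimulated level. The RNA is from whole cultures, in which fewer cells of a kind and less RNA per cell cannot be told apart.

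Values are log2 probe-set values, so a difference of 1 is 2-fold. The whole table ran from 5.86 to 14.23. Mouse RNA should not bind the 27 bacterial poly-A control sets, which ran from 6.09 to 7.00 and mark the bottom of the scale. Averaged over all 9 arrays each of the 7 chemokines lay above 7.00, as did 60.5% of all clusters. A group mean near or below 7.00 is barely told apart from background, and a fold against it may be too small. Levels are compared between groups for 1 gene at a time, not between genes.

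The 7 genes fell into a pair that was lowest in cmB16F1, Ccl2 and Ccl7, and 5 genes whose highest mean was in cmB16F1, namely Ccl3, Ccl4, Ccl5, Cxcl1 and Cxcl2. The largest spread of group means was 2.27 for Ccl5, and the smallest was 0.17 for Cxcl1.

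**Figure D1:**
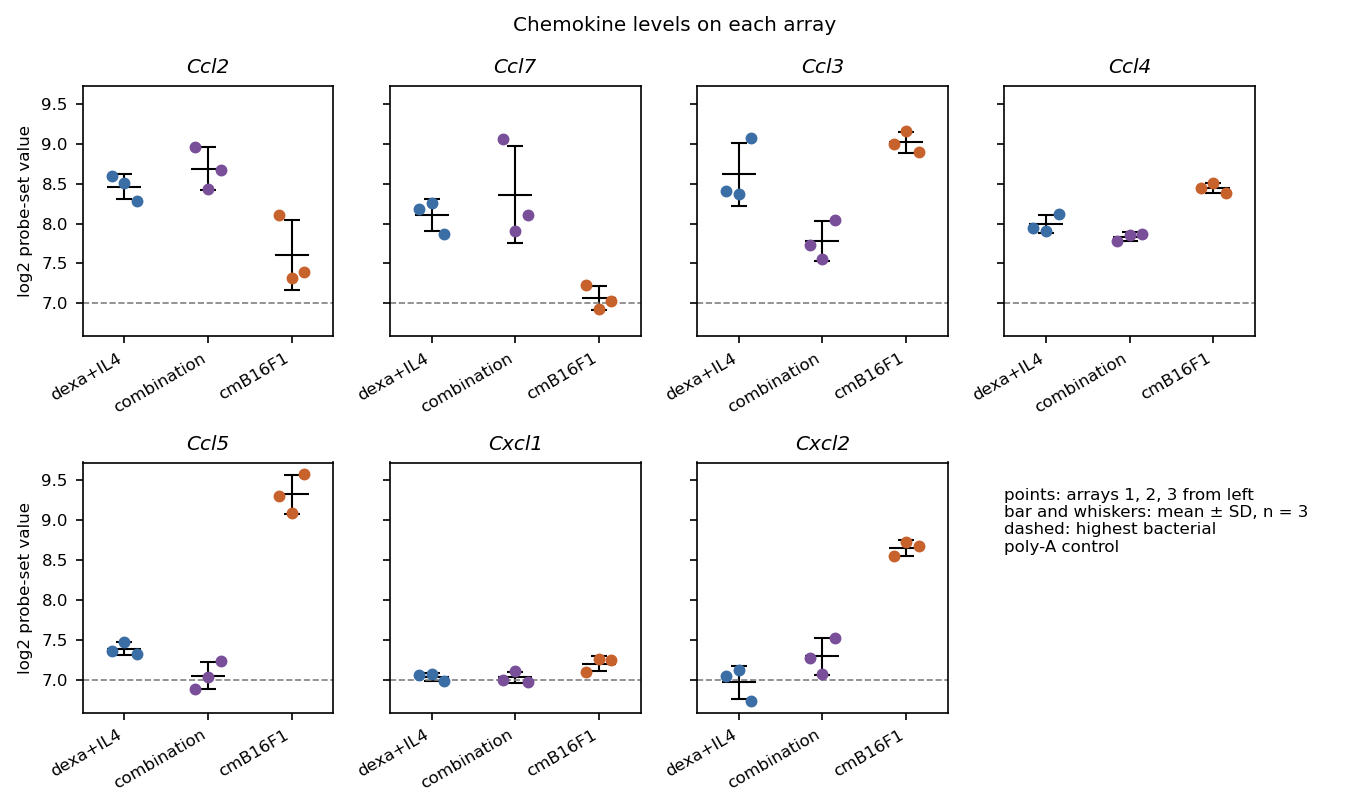
Log2 probe-set values of the 7 chemokines (vertical axis) on the 3 arrays of each group, with mean and SD as bar and whiskers and the highest bacterial poly-A control, 7.00, as a dashed line. Ccl2 and Ccl7 are lowest in cmB16F1, Ccl5 and Cxcl2 are far higher there than in the other groups, and Cxcl1 stays close to the dashed line in all 3 groups.

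Ccl2 and Ccl7 encode monocyte chemoattractant proteins that act through the receptor CCR2 and recruit monocytes. They are direct neighbours on chromosome 11 in the RefSeq gene table. Ccl2 stood at 8.60, 8.50 and 8.29 on the dexa+IL4 arrays, at 8.96, 8.43 and 8.67 on the combination arrays, and at 8.10, 7.32 and 7.40 on the cmB16F1 arrays. All 6 arrays with dexamethasone and IL-4 lay above the 3 without, and the first cmB16F1 array, at 8.10, came nearest to them. The combination exceeded cmB16F1 by 1.08 (2.12-fold; SE 0.2, limma with Benjamini-Hochberg adjusted p = 0.00477). Ccl2 was also higher in dexa+IL4 than in cmB16F1, by 0.86 (1.81-fold, adjusted p = 0.0109).

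Ccl7 stood at 8.18, 8.26 and 7.87 in dexa+IL4, at 9.06, 7.91 and 8.11 in the combination, and at 7.24, 6.93 and 7.03 in cmB16F1. The cmB16F1 mean, 7.07 ± 0.155 (SD, n = 3), was only 0.07 above the highest bacterial control. Again no cmB16F1 array reached any of the other 6. Ccl7 was 2.45-fold higher in the combination than in cmB16F1 (difference 1.29, SE 0.246, limma adjusted p = 0.00559) and, in dexa+IL4, exceeded cmB16F1 2.05-fold (1.04, SE 0.246, adjusted p = 0.0118).

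Neither monocyte chemoattractant was separated between the combination and dexa+IL4. The difference of Ccl2 was 0.23, with a 95% confidence interval of -0.22 to 0.67, and that of Ccl7 was 0.26, with an interval of -0.29 to 0.81 (limma adjusted p = 0.51 and 0.545). The Ccl7 arrays of the combination were spread widely, with an SD of 0.61, and the first of them alone lay above all dexa+IL4 arrays. Without it the Ccl7 difference was -0.09 and the Ccl2 difference 0.09. Without combination array 2 these were 0.48 and 0.35, and without dexa+IL4 array 3 both were 0.14.

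Ccl3 and Ccl4 encode macrophage inflammatory proteins 1 alpha and 1 beta, which attract monocytes and other leukocytes, and are also direct neighbours on chromosome 11. The levels of Ccl3 were 8.40, 8.37 and 9.07 in dexa+IL4, 7.74, 7.55 and 8.05 in the combination, and 8.99, 9.16 and 8.89 in cmB16F1. The 3 combination arrays were the lowest of the 9, while the third dexa+IL4 array lay within the range of cmB16F1. Ccl3 was lower in the combination than in either other group: 2.36-fold against cmB16F1 (difference -1.24, SE 0.184, limma adjusted p = 0.00132) and 1.79-fold against dexa+IL4 (-0.84, SE 0.184, adjusted p = 0.0111). The second difference was -0.61 without the high dexa+IL4 array, with an adjusted p of 0.0198. Between dexa+IL4 and cmB16F1, Ccl3 differed by -0.40 with an interval from -0.81 to 0.01 (limma adjusted p = 0.148). Without the third dexa+IL4 array this difference was -0.63 and passed the threshold (adjusted p = 0.0112), as it did with array weights.

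Ccl4 showed a smaller and tighter pattern. Its arrays were at 7.94, 7.91 and 8.12 in dexa+IL4, at 7.78, 7.86 and 7.87 in the combination, and at 8.44, 8.50 and 8.39 in cmB16F1. All 3 cmB16F1 arrays lay above the other 6. Ccl4 was 1.52-fold lower in the combination than in cmB16F1 (-0.61, SE 0.0621, limma adjusted p = 1.168e-04) and 1.37-fold lower in dexa+IL4 (-0.45, SE 0.0621, adjusted p = 5.063e-04). The combination arrays also lay below all dexa+IL4 arrays, but that difference of -0.16 did not pass over the whole table (limma adjusted p = 0.118), and it was -0.09 without dexa+IL4 array 3 (adjusted p = 0.358). It was -0.41, and passed (adjusted p = 0.019), with hybridization controls setting the scale of each array, a scaling that moved the median difference of all clusters to -0.26.

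Ccl5, also called RANTES, attracts T cells and monocytes, and varied most of the 7. In cmB16F1 its arrays were at 9.30, 9.09 and 9.58. In dexa+IL4 they were at 7.36, 7.48 and 7.32, and in the combination at 6.89, 7.04 and 7.23. The cmB16F1 arrays thus stood more than 1 log2 unit above all others. Ccl5 was 4.84-fold lower in the combination than in cmB16F1 (-2.27, SE 0.12, limma adjusted p = 1.415e-06) and 3.83-fold lower in dexa+IL4 than in cmB16F1 (-1.94, SE 0.12, adjusted p = 2.599e-06). The combination mean, 7.05 ± 0.172 (SD, n = 3), was 0.05 above the highest bacterial control, and its first array, at 6.89, was below the highest such control of the same array, 6.97. The 4.84-fold may therefore be too small.

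Every combination array of Ccl5 lay below every dexa+IL4 array as well, by 0.34 on average with an interval of the difference from -0.60 to -0.07. Over the whole table this was not called (limma adjusted p = 0.082). It was called without the third combination array (-0.43, adjusted p = 0.0406) and without the second or the third cmB16F1 array (adjusted p = 0.0468 and 0.0327), which enter only through the shared estimate of spread. The other calls were made when only the 6 arrays compared were fitted (adjusted p = 0.027) and when hybridization controls set the scale (-0.59, adjusted p = 2.640e-04).

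Cxcl1 (also KC) and Cxcl2 (also MIP-2) attract neutrophils through CXCR2 and are direct neighbours on chromosome 5. Of the 7 genes, 3 had a promoter in the RefSeq table used here, namely these and Ccl3. The stretch from 150 bases to 1 base before the annotated start site is shown for the CXCL pair. These genes lie side by side and hold the same NF-kB consensus match. Capitals mark the match, which is read on both strands with the matches overlapping. The sequences are from RefSeq, build GRCm38.p6, plus strand, at chr5:90891095-90891244 for Cxcl1 and chr5:90903749-90903898 for Cxcl2, and both lie upstream of the transcript.
Cxcl1: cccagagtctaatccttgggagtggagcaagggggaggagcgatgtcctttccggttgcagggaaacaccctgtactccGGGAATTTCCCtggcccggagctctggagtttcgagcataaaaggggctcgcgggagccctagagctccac
Cxcl2: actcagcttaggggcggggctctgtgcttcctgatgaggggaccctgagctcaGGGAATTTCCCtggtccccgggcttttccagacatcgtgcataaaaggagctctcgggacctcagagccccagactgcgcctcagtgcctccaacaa

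The longest stretch that the 250-base windows of Cxcl1 and Cxcl2 had in common was the 14 bases gggaatttccctgg. Counted from the start site, with -1 the base just before it, the stretch ran from -71 to -58 in Cxcl1 and from -97 to -84 in Cxcl2. An NF-kB consensus match on either strand was present in 3.9% of the 32851 promoter windows of this length. The window of Ccl3 had none. The AP-1 motif TGANTCA (6.75% of windows), the glucocorticoid receptor hexamer AGAACA (16.1%) and the STAT6 motif TTCNNNNGAA (5.85%), each searched on both strands, were in none of the 3 windows. A match of letters is no measurement of binding, and the lack of a match speaks only of these windows.

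Cxcl2 was at 8.55, 8.73 and 8.68 in cmB16F1. It was at 7.05, 7.13 and 6.73 in dexa+IL4 and at 7.28, 7.08 and 7.53 in the combination. The cmB16F1 arrays stood apart from the other 6, and the other groups overlapped. Cxcl2 was 2.57-fold lower in the combination than in cmB16F1 (-1.36, SE 0.123, limma adjusted p = 5.252e-05). The dexa+IL4 mean, 6.97 ± 0.209 (SD, n = 3), was within the range of the bacterial controls. Where a bacterial control of an array exceeded Cxcl2, the highest such control was used as its level. On this reckoning Cxcl2 was 3.02-fold lower in dexa+IL4 than in cmB16F1 (fitted difference -1.68, limma adjusted p = 7.916e-06). The 3.02-fold is a point estimate that may be too small.

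Between the combination and dexa+IL4, Cxcl2 differed by 0.33 with an interval from 0.05 to 0.60. Over the whole table it was not called (limma adjusted p = 0.101). It was 0.43 and passed without the second combination array (adjusted p = 0.0486), was 0.21 without dexa+IL4 array 3 or combination array 3 (adjusted p = 0.31 and 0.266), and was 0.07 with scaling to the hybridization controls. With the dexa+IL4 level set by the bacterial controls as above, the point estimate of the ratio was 1.18-fold, for a difference that was not called. The combination mean of Cxcl2 lay between the other means. The other 6 genes had combination means above both for Ccl2 and Ccl7 and below both for Ccl3, Ccl4, Ccl5 and Cxcl1. Of these, Ccl3 passed the test against both groups, and none of the other 5 did.

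Cxcl1 stayed near the background reference throughout. Its arrays were at 7.06, 7.07 and 6.98 in dexa+IL4, at 7.00, 7.11 and 6.98 in the combination, and at 7.10, 7.27 and 7.25 in cmB16F1. The cmB16F1 arrays were slightly higher, and the lowest of them lay within the range of the combination. The difference between dexa+IL4 and cmB16F1, -0.16 (SE 0.0536), passed with a limma adjusted p of 0.0492, and this call was lost under 10 of 19 alternatives. Among these were leaving out any dexa+IL4 array, combination array 1 or 3, or cmB16F1 array 2 or 3, with adjusted p between 0.0508 and 0.162. The combination was 0.17 below cmB16F1, with an interval of the difference from -0.29 to -0.05, and was not called (limma adjusted p = 0.0614). It was called under 9 of 19 alternatives, among them with the replicate number as a block (adjusted p = 0.0351), without the second combination array (adjusted p = 0.0361) and without the first cmB16F1 array (adjusted p = 0.0171). Against dexa+IL4 the combination differed by -0.01 with an interval from -0.13 to 0.11.

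**Figure D2:**
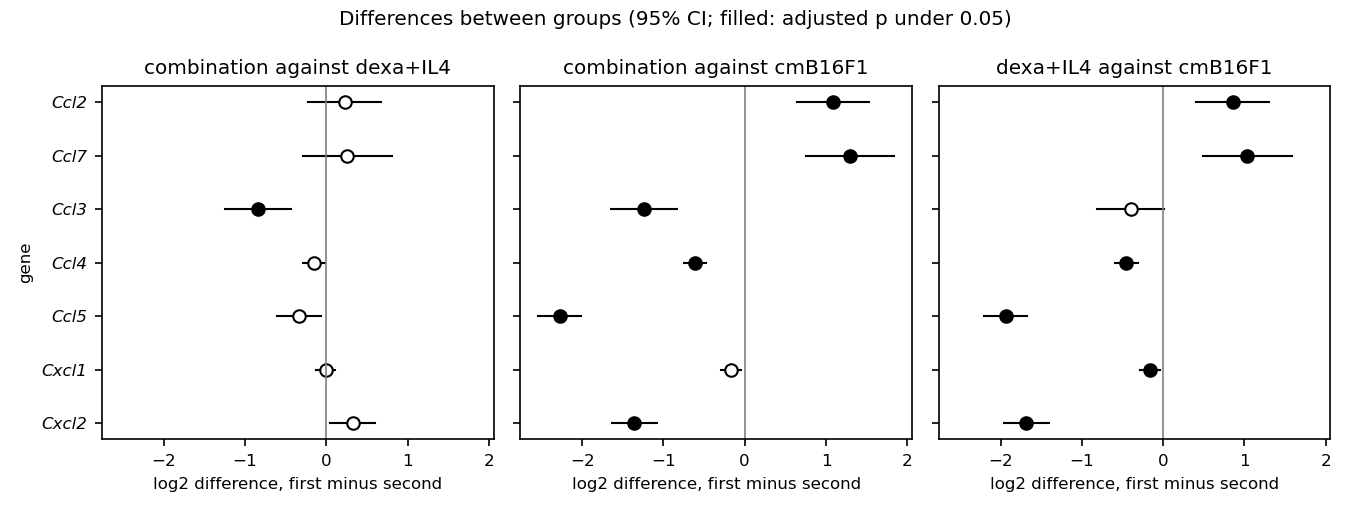
Log2 differences of the 7 chemokines (horizontal axis, first group minus second) with 95% confidence intervals from limma in the 3 comparisons, filled where the adjusted p was under 0.05. In both comparisons with cmB16F1, Ccl2 and Ccl7 lie to the right of 0 and the other genes to the left, and against dexa+IL4 only Ccl3 is filled.

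Set against the whole table, the chemokines were called more often where cmB16F1 was the reference. The combination against cmB16F1 asks what dexamethasone with IL-4 changed in cells given melanoma medium. In that comparison 6 of the 7 passed, where 14.1% of all clusters passed. The 2 higher genes, Ccl2 and Ccl7, stand beside 6.56% of clusters called higher, and the 4 lower genes, Ccl3, Ccl4, Ccl5 and Cxcl2, beside 7.57% called lower. Of the 7, 5 were called with 2-fold or more, as were 1.28% of clusters. Without combination array 1 the count was 3, since Ccl2 and Ccl7 then differed by 0.95 each. Ccl2 alone also fell under 2-fold without cmB16F1 array 2 (0.94) or 3 (0.98), and with scaling to hybridization controls (0.87). The arrays did not overlap for 6 of the 7 genes and for 28.5% of clusters. The median size of the difference was 1.24 over the 7 and 0.06 over all clusters. With only clusters of a mean above 7.00 fitted, 23.3% of clusters passed, and 7 of the 7 genes.

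Between dexa+IL4 and cmB16F1, groups that differ in every agent, 6 of 7 genes passed against 25.0% of clusters. Ccl2 and Ccl7 were higher in dexa+IL4 (12.8% of clusters were called higher). Ccl4, Ccl5, Cxcl1 and Cxcl2 were lower (12.2% were called lower). Called changes of at least 2-fold numbered 3 among the 7, those of Ccl5, Ccl7 and Cxcl2, against 2.14% of clusters. Ccl7 was close to this limit, and its difference was 0.96 without dexa+IL4 array 2 and 0.97 without cmB16F1 array 2. Without cmB16F1 array 1, the Ccl2 difference passed the limit, at 1.11. Arrays of the groups were fully apart for 6 of the 7 genes and for 44.3% of clusters. With only clusters of a mean above 7.00 fitted, 39.6% of clusters passed, and 6 of the 7 genes. The comparisons with cmB16F1 share its 3 arrays, so a like direction in both is not independent evidence.

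The combination against dexa+IL4 asks what melanoma medium changed in cells given dexamethasone and IL-4. Here 1 of 7 genes passed, Ccl3, against 17.9% of clusters. Ccl3 was lower, as were 9.0% of clusters, and 0 chemokines were called higher against 8.88%. No chemokine was called with 2-fold or more (1.03% of clusters were). At 1 in 7 the share called is close to that of all clusters. With only clusters of a mean above 7.00 fitted, 30.8% of clusters passed, and Ccl3 was again the 1 chemokine called. Arrays did not overlap for 3 of the 7, Ccl3, Ccl4 and Ccl5, each lower in the combination, against 36.1% of clusters. The median difference of the 7 was -0.01, with a median size of 0.26 against 0.07 over all clusters. With hybridization controls setting the scale, 3 chemokines were called, Ccl4 and Ccl5 being added, and so were 39.9% of clusters. It was 2 without the second combination array, which added Cxcl2, and 2 without combination array 3 or cmB16F1 array 2 or 3, each of which added Ccl5.

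**Figure D3:**
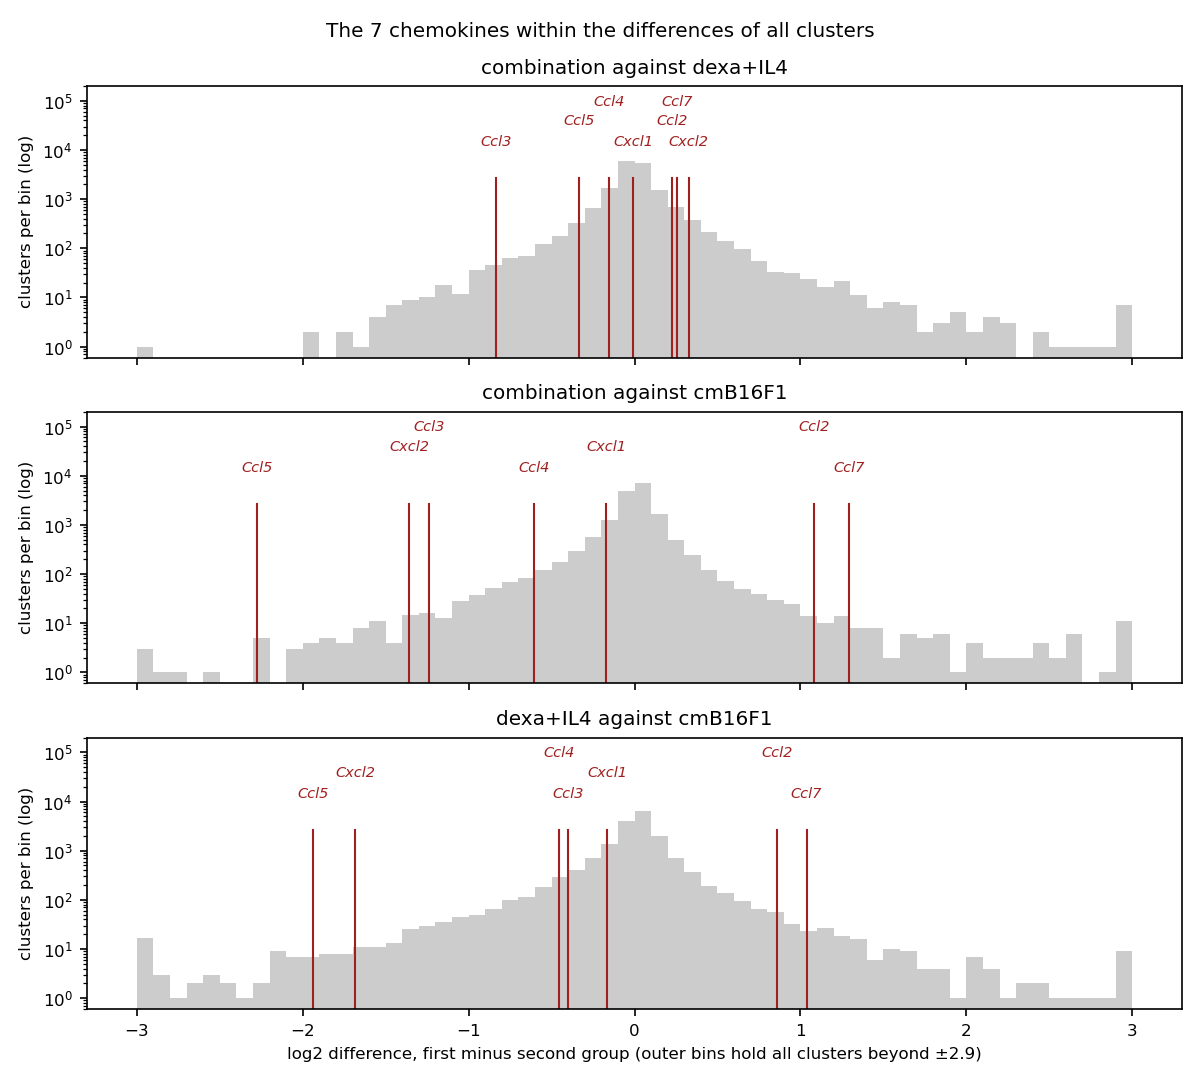
Number of clusters per 0.1-wide bin of log2 difference (vertical axis, log scale) in the 3 comparisons, with the 7 chemokines as lines. Against cmB16F1 Cxcl1 lies near 0 and the others farther out on both sides, from -2.27 for Ccl5 to 1.29 for Ccl7 in the combination, while against dexa+IL4 all lie between -0.84 and 0.33.

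The middle chemokine varied more between arrays of a group than the middle cluster did, though not every member did. All clusters here include dim ones, since 60.5% had a mean above 7.00, as did each of the 7. The SD of the brighter clusters alone was not taken. The median SD within a group was 0.159 for the 7 and 0.0435 for all clusters in dexa+IL4, 0.227 against 0.0631 in the combination, and 0.138 against 0.0541 in cmB16F1. The most variable member was Ccl3 in dexa+IL4 (SD 0.395), Ccl7 in the combination (0.61) and Ccl2 in cmB16F1 (0.434). Ccl4 and Cxcl1 were among the steadiest, with SDs of at most 0.113, and Ccl4 in the combination (0.0511) was below the median of all clusters.

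Arrays of equal number deviated together for some genes and not for others. In both groups with melanoma medium, the arrays numbered 1 were the highest for Ccl2 (8.96 and 8.10) and for Ccl7 (9.06 and 7.24). For Ccl5, the arrays numbered 3 were the highest in cmB16F1 and in the combination. Ccl3 and Cxcl2 ran the other way, with the arrays numbered 2 the highest in cmB16F1 (9.16 and 8.73) and the lowest in the combination (7.55 and 7.08). Taken between arrays of equal number, the combination exceeded cmB16F1 in Ccl2 by 0.86, 1.12 and 1.27, and in Ccl7 by 1.82, 0.98 and 1.08. The equal-number differences of Ccl5 were -2.42, -2.05 and -2.35. Those of Ccl3 were -1.26, -1.61 and -0.84, those of Cxcl2 were -1.27, -1.65 and -1.15, and those of Ccl4 were -0.66, -0.64 and -0.52. Those of Cxcl1 were -0.10, -0.15 and -0.27. All 7 genes had 1 direction in all 3 pairs. For the 6 genes whose arrays did not overlap between these groups, any joining of arrays gives this, so only Cxcl1 could have differed. With both arrays numbered 1 left out, the differences of Ccl2 and Ccl7 were 1.19 and 1.03, and both passed (limma adjusted p = 3.087e-04 and 0.00115).

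**Figure D4:**
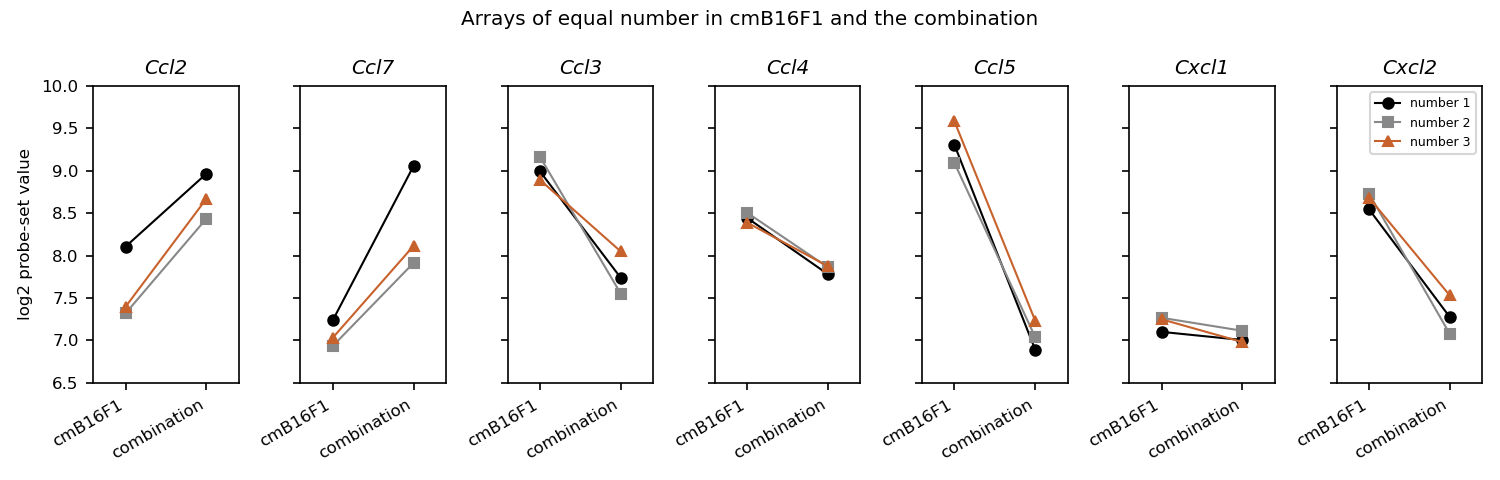
Log2 probe-set values (vertical axis) of the 7 chemokines on cmB16F1 and combination arrays, with lines joining arrays of equal number. All lines rise for Ccl2 and Ccl7 and descend for Ccl3, Ccl4, Ccl5 and Cxcl2, and the arrays numbered 1 are the highest for Ccl2 and Ccl7 in both groups.

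Likeness of pattern was measured as the root-mean-square difference of the log2 values of 2 genes over the 9 arrays, after each was centred on its own mean. The smallest distances were 0.21 between Ccl4 and Cxcl1 and 0.24 between the neighbours Ccl2 and Ccl7. Among the 7, Ccl4 and Cxcl1 had the smallest spreads of group means, 0.61 and 0.17. The neighbours Ccl3 and Ccl4 were 0.36 apart. Ccl5 and Cxcl2, on different chromosomes, were 0.42 apart, while the neighbours Cxcl1 and Cxcl2 were 0.67 apart. This measure also counts unlike sizes of variation. Group means spread over 0.17 for Cxcl1, near the background reference, and over 1.68 for Cxcl2, and both were highest in cmB16F1. The largest distance, 1.61, was between Ccl5 and Ccl7. Among all 17809 other clusters, Mm.87596 and Mm.50841, which have no name here, were nearest to Ccl5, at 0.206 and 0.221. A gene with no variation at all would be 1.01 from Ccl5. The group means of Mm.87596 were 8.81 ± 0.214 (SD, n = 3) for dexa+IL4, 8.66 ± 0.086 for the combination and 10.76 ± 0.0714 for cmB16F1. Those of Mm.50841 were 7.81 ± 0.225, 7.13 ± 0.0318 and 9.70 ± 0.315 in the same order. Cxcl2 ranked 30 in nearness to Ccl5.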

How the data were processed

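The table deposited by the authors holds 1 log2 value per probe set and array, already normalized, as judged from the range of values and from array medians of 7.19 to 7.25. How it was normalized and summarised, and with which chip definition, is not given in the sources used here. Per the labels' protocols, total RNA was made into biotinylated cRNA by the Affymetrix procedure, with 1 array per sample. Of 17931 probe sets, 64 were control sets. For 57 clusters with a plus and a minus set the brighter was used.

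Groups were compared with limma 3.58.1 in R 4.3.3 (lmFit, eBayes with a mean-variance trend, group as the only term, all 9 arrays, 6 residual and 3.85 prior degrees of freedom). P-values were adjusted by Benjamini-Hochberg over 17829 features (17810 clusters and 19 mouse control sets), and called under 0.05. Counts over all clusters are over 17810. The code was also run on simulated data with independent noise. These lacked the shared deviations of equal-number arrays, so that run does not speak to the calls made here.

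Replicate numbers come from the labels. Deviations from group means correlated at 0.617, 0.565 and 0.662 between arrays of equal number in the combination and cmB16F1, all over 0.1. The reported fit does not use this pairing, and the replicate number enters as a block in 1 alternative only. With the block, the SE of the Ccl2 difference between these groups was 0.116 in place of 0.2. In the comparisons with dexa+IL4 at least 1 correlation was below 0.1.

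The rule for named genes was all 7 members, plus the 2 clusters nearest in pattern to the most variable member. Members, lists and tests were chosen with earlier results of these data known. Lists of receptors, other chemokines, regulators and cell-type markers were also set down by symbol, but 0 of the cluster numbers were found in the gene table, so none was tested. Alternatives covered normalization, the dim-cluster filter, the variance prior, array weights, the arrays fitted, the replicate block and leaving out each array.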

Additional observations from a re-analysis of the deposited data

How the results depend on the processing

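Of the 21 differences (7 genes in 3 comparisons), 12 kept their direction and their side of the threshold under all 19 alternatives, 1 of which was added after seeing the data (leaving out the arrays numbered 1 of cmB16F1 and the combination). The 12 are every called difference but that of Cxcl1 between dexa+IL4 and cmB16F1. The number of chemokines called was 6 to 7 in the combination against cmB16F1 and 5 to 7 in dexa+IL4 against cmB16F1. In the combination against dexa+IL4 it was 1 in the reported fit, 3 with scaling to hybridization controls, 2 with only the arrays compared, and 1 to 2 with an array left out. With the replicate number as a block, Cxcl1 passed in the combination against cmB16F1, which made 7 called there, and no other call changed. The cause of these changes was not tested. Scaling to hybridization controls gave a median over all clusters of -0.26 (combination against dexa+IL4), -0.20 (combination against cmB16F1) and 0.06 (dexa+IL4 against cmB16F1). It moved the clusters called from 3184 to 7104, from 2516 to 2253 and from 4454 to 1893, and the share of these that were higher from 49.7% to 5.34%, from 46.4% to 11.7% and from 51% to 49.3%. Median centring gave a share of 38.1% in the first. There, 2044 clusters were called without dexa+IL4 replicate 1 and 2096 without dexa+IL4 replicate 3. Directions that turned, all in the combination against dexa+IL4 and none past the threshold, were those of Ccl2 with scaling to hybridization controls (-0.03; range 0.09 to 0.35 with an array left out), of Ccl7 without combination replicate 1 (-0.09; range -0.09 to 0.48 with an array left out) or without the arrays numbered 1 (-0.09), and of Cxcl1 without dexa+IL4 replicate 1 or 2 (0.00 and 0.01), without combination replicate 1 or 3 (0.01 and 0.02; range -0.05 to 0.02) and without the arrays numbered 1 (0.01). No member has a plus and a minus set, so the alternative with the other set gave no value. Over the 3 group means, Mm.87596 was again nearest to Ccl5 (0.0874), but Mm.24045 (0.092) took the place of Mm.50841. Signal near the bacterial controls limits Cxcl1 in all groups, Cxcl2 in dexa+IL4, Ccl5 in the combination and Ccl7 in cmB16F1.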
